A study of Mus musculus with 54 samples.

Results

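Resting microglia (MG) of mice that lack the chemokine receptor CCR2 were compared with MG of wild-type (WT) mice in 6 RNA-seq libraries, 3 per genotype, out of 54 libraries in the whole series. Members were chosen by their labels as the MG libraries of untreated, PBS-injected mice, and all genes on the X and Y chromosomes were left out. The series otherwise contains macrophages of the brain's inner coverings and vessel sheaths (subdural CNS-associated macrophages, sdCAMs), mice that were given lipopolysaccharide (LPS) after vehicle (CTL) or after the CSF-1R inhibitor BLZ945, and a Ccr2 reporter line. The mice of the 6 libraries received PBS, with neither BLZ945 nor LPS, and were perfused 12 h later. The brain without choroid plexuses was dissociated and MG were sorted as the CD206-negative population. WT mice were C57BL/6JCrl animals from a commercial breeder, and knockout mice were constitutive homozygotes of the strain B6.129S4-Ccr2tm1Ifc/J, called Ccr2-/- below. Each library is 1 mouse, numbered 9, 14 and 15 in the WT group and 1m, 3m and 5f in the Ccr2-/- group, and values are listed in that order. The age of each mouse is not given in the sources used here, and the 2 genotypes are separate strains. The deletion is constitutive, so that MG and all other cells of the body carried it.

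CCR2 is the receptor through which CCL2, CCL7, CCL8 and CCL12 call classical monocytes out of the bone marrow and into inflamed tissue. MG arise from yolk sac progenitors, renew themselves within the brain and, at rest, hold little Ccr2 RNA. They are recognised by P2ry12, Tmem119, Sall1 and Cx3cr1, and their resting state rests on CSF-1R and TGF-beta signalling. The gene Ccr2 lies in a cluster of chemokine receptor genes near the end of mouse chromosome 9, next to Ccr1, Ccr3, Ccr9, Cxcr6 and Xcr1.

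Sequencing depth was 7497764 to 8992758 counts per WT library and 8305204 to 10781114 counts per Ccr2-/- library, and 13928 to 14676 genes had at least 1 count. At this depth a gene with no count in a library may still lie below 0.278 to 0.4 CPM (counts scaled to 1000000 per library), the level of 3 counts, which covers counting error only. Values below are CPM after scaling by the trimmed mean of M values (TMM). All 6 libraries held the microglial markers at high level, with P2ry12 between 9479 and 15832 CPM, whereas Cd3e of T cells had no count and Ly6c2 of monocytes had 0 counts in WT and 4 in Ccr2-/- libraries. The Ccr2-/- library 1m stood apart in holding S100a8 (38.9 CPM), S100a9 (20.7 CPM), F13a1 (7.43 CPM) and Chil3 (4.01 CPM), which the other 5 libraries held at 0 to 0.526 CPM. Xist was present in 1 WT library (3638 counts in mouse 9) and in 2 Ccr2-/- libraries (2728 counts in 3m and 1987 in 5f), and the Y-linked Ddx3y in the others, so that the letter of the library labelled 3m goes against its transcripts if it stands for male.

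Ccr2 itself did not separate the genotypes in MG. Without TMM scaling, it reached 7.36 ± 3.36 CPM in WT and 6.05 ± 1 CPM in Ccr2-/- libraries (SD, n = 3; exact two-sided permutation p = 0.6, where 3 against 3 cannot go below 0.1). By library, TMM-scaled values were 3.77, 7.53 and 10.5 CPM in WT and 6.48, 5.56 and 7.75 CPM in Ccr2-/- MG, and the Ccr2-/- values lay inside the WT range. These are counts over the whole gene, so they do not show which part of it was transcribed, and the libraries are called Ccr2-/- by their labels. Of the ligands, Ccl12 lay at 98.7, 36 and 33.1 CPM in WT and at 121, 70 and 104 CPM in Ccr2-/- MG and overlapped between groups (log2 fold change 0.82 with an SE of 0.309, edgeR adjusted p = 0.0549). Ccl12 passed without WT mouse 9 (1.52, edgeR adjusted p = 8.11e-05), without 3m (1.02, edgeR adjusted p = 0.0252) and under the low-count rule of the study (0.82, edgeR adjusted p = 0.0129). Ccl2 was low in both (3.71 ± 2.18 and 6.84 ± 2.6 CPM, n = 3; edgeR adjusted p = 0.195). Ccl7 and Ccl8, with 28 and 0 counts in all WT and 10 and 11 in all Ccr2-/- libraries, were too low to be tested.

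Genes around Ccr2 on chromosome 9 were examined by their order. The plot of the fold changes by gene order shows 24 of the 25 genes tested among 44 located from 40 genes before Ccr2 to the last gene of the chromosome, 3 genes after it. At an adjusted p below 0.05, 5 of them were higher and 5 lower in Ccr2-/- MG, against 14.6% higher and 16.3% lower of all 10754 genes tested, so that the shares were near those of all genes. With a log2 fold change above 1 in size as well, 1 was called higher and 3 lower, against 1.39% and 6.18% of all genes, and those described are 2010315B03Rik, Ccr1 and Fyco1.

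**Figure D1:**
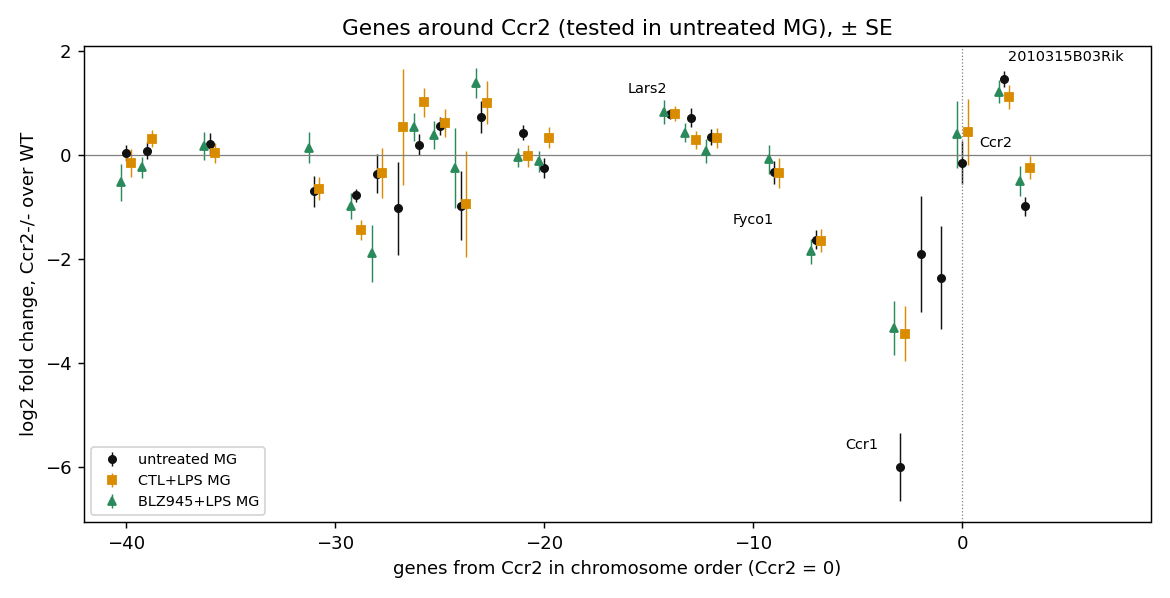
Log2 fold change of Ccr2-/- over WT (y axis, bars ± SE of the fit) for the genes around Ccr2, placed by gene order (x axis, Ccr2 at 0) in untreated MG (circles), CTL+LPS MG (squares) and BLZ945+LPS MG (triangles), 3 libraries per genotype each. Ccr1 lies far below all others, at -5.99 in untreated MG and at -3.44 and -3.33 after LPS, while Ccr2 lies near 0.

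Ccr1, which encodes a receptor for CCL3, CCL5 and related chemokines, was nearly absent from Ccr2-/- MG. WT libraries held 15.7, 15.3 and 8.59 CPM and Ccr2-/- libraries 0.472, 0.101 and 0 CPM, which is 321 counts in all against 5, without overlap. The fitted log2 fold change was -5.99 (SE 0.652, edgeR adjusted p = 6.38e-06), a value that with so few Ccr2-/- counts depends on the prior count of the fit. Ccr1 was also lower in Ccr2-/- MG of other mice, with log2 fold changes of -3.44 after CTL and LPS (edgeR adjusted p = 0.00671) and -3.33 after BLZ945 and LPS (edgeR adjusted p = 0.00382). In sdCAMs of the same 6 untreated mice it was higher in Ccr2-/- (log2 fold change 1.10 with an SE of 0.255, edgeR adjusted p = 0.0338).

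The predicted gene 2010315B03Rik, which lies after Ccr2, was higher, at 39.8, 37.7 and 41.3 CPM in WT and 128, 89.9 and 109 CPM in Ccr2-/- MG (log2 fold change 1.46 with an SE of 0.151, edgeR adjusted p = 3.8e-06). Fyco1, an adaptor that links autophagosomes to microtubule transport and lies 7 genes before Ccr2, fell from 68.8, 98.6 and 86.7 CPM to 23.6, 24.5 and 34.6 CPM (log2 fold change -1.62 with an SE of 0.184, edgeR adjusted p = 8.95e-06). The groups overlapped for neither gene, and both were called in the same direction in CTL+LPS and BLZ945+LPS MG. Smaller differences that passed the test without reaching the fold limit were found for Ppp2r3d (log2 fold change -0.99), Zfp445 (-0.77), Lars2 (0.80), the mitochondrial leucyl-tRNA synthetase, and Limd1 (0.72). Removing the trend with exon length described below left the log2 fold changes at -6.12 for Ccr1, -1.26 for Fyco1 and 1.47 for 2010315B03Rik.

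The start regions of Ccr1, Ccr2 and 2010315B03Rik are shown because Ccr1 was nearly absent, Ccr2 did not pass the test and 2010315B03Rik rose. Each is 250 bases before to 50 bases after a RefSeq start, 5′ to 3′ on the gene's strand (build GRCm38.p6; chr9:123968643-123968942, minus strand, for Ccr1, chr9:124101933-124102232, plus strand, for Ccr2 and chr9:124312645-124312944, minus strand, for 2010315B03Rik). Capitals mark GAGGAA or its reverse complement, the core letters bound by the macrophage factor PU.1, which 28.3% of the 32851 RefSeq start regions of this length hold on either strand.
Ccr1: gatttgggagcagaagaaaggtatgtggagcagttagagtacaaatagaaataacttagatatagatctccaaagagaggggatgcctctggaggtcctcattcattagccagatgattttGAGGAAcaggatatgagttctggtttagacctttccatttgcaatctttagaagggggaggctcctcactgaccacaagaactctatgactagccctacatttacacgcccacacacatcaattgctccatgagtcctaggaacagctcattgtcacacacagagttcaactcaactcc
Ccr2: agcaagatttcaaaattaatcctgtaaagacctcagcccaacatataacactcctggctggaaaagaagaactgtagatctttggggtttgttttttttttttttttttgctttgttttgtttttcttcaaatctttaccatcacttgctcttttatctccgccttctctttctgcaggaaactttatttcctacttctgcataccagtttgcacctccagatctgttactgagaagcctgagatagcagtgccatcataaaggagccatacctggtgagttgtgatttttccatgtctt
2010315B03Rik: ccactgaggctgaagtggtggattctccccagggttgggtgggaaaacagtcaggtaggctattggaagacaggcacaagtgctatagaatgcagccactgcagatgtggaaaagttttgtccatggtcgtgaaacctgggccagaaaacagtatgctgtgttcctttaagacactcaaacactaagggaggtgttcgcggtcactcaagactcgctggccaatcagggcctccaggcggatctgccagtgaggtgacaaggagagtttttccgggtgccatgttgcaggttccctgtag
Ccr1 held 1 match and the other two held none, which describes these letters and this window only.

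Over the whole transcriptome, calls numbered 815 of 10754 genes (7.58%), with 150 higher and 665 lower in Ccr2-/- MG. At an adjusted p below 0.05 alone, 1568 genes were higher and 1748 lower. The groups did not overlap for 4745 genes (44.1%), and for 796 of the 815 calls. The number of higher calls depended on WT mouse 9, without which it was 238. The labels give all 6 libraries 1 batch number, but each genotype has its own deposited table and its own run of library numbers, so that genotype and library preparation cannot be told apart. Mice are separate samples, and the p-values measure the spread between these mice.

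The 12 higher calls with the smallest p included abundant microglial genes. Cst3, encoding the secreted protease inhibitor cystatin C, lay at 15598, 14858 and 14446 CPM in WT and at 31245, 29968 and 30981 CPM in Ccr2-/- MG (log2 fold change 1.04 with an SE of 0.0443, edgeR adjusted p = 6.07e-10). The tetraspanin gene Cd9 rose from 1046 ± 73.6 to 2246 ± 163 CPM (n = 3; log2 fold change 1.10 with an SE of 0.0778, edgeR adjusted p = 7.65e-08). Tyrobp, the signalling adaptor of TREM2, rose from 738, 728 and 625 CPM to 1583, 1348 and 1394 CPM (log2 fold change 1.05 with an SE of 0.0873, edgeR adjusted p = 5.35e-07). For these genes every Ccr2-/- library exceeded every WT library, as the plot of levels by library shows. No overlap between the groups was a condition for entering the 12. Apoe, the lipid carrier, rose from 183, 125 and 158 CPM to 427, 317 and 315 CPM (log2 fold change 1.18 with an SE of 0.141, edgeR adjusted p = 1.46e-05), and so did the chemokine gene Ccl6 (log2 fold change 1.18, edgeR adjusted p = 7.38e-06) and, outside the 12, its relative Ccl9 (log2 fold change 1.21, edgeR adjusted p = 2.53e-05). The other members of the 12 were Selenof and Selenok (log2 fold changes 1.07 and 1.00), which encode selenoproteins of the endoplasmic reticulum, Arl6ip5 (1.08), Tmem100 (1.04) and the ribosomal protein genes Rpl37a, Rpl32 and Rplp1 (1.51, 1.40 and 1.33). With the exon length trend described below removed, Cst3 (0.68), Cd9 (0.85), Apoe (0.95) and Ccl6 (0.90) passed but were no longer past the fold limit. The same held for Selenok (0.73), Arl6ip5 (0.75), Tmem100 (0.75) and Rplp1 (0.97), but not for Selenof (1.25), Rpl37a (1.17) or Rpl32 (1.02). Tyrobp, like every disease-associated gene tested, was not past the fold limit in that setting.

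**Figure D2:**
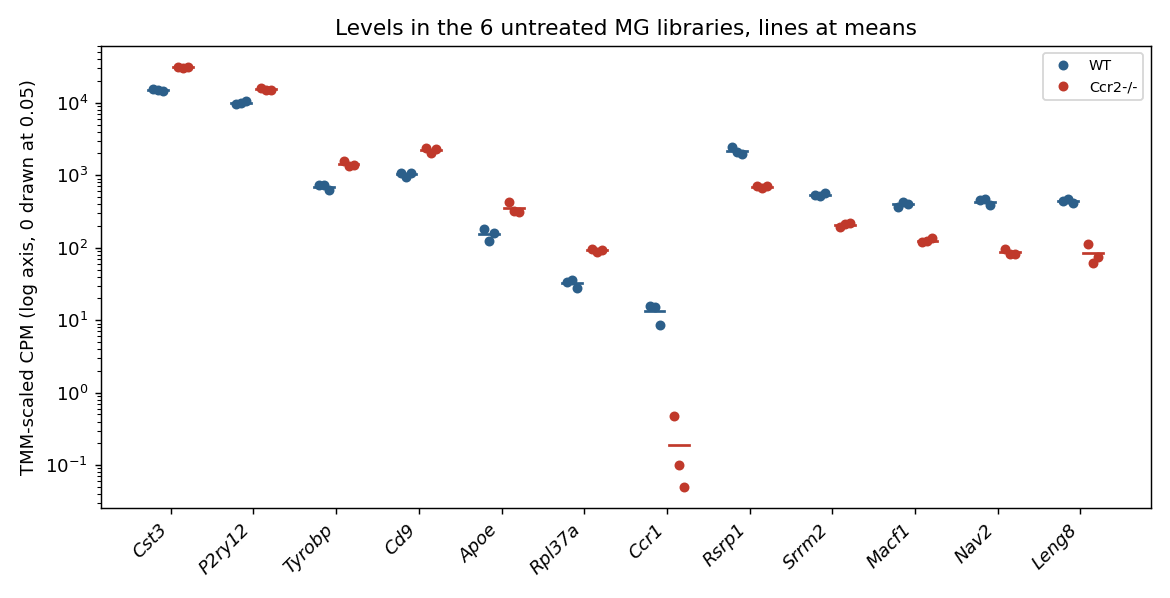
TMM-scaled CPM (log axis, 0 drawn at 0.05) of 12 genes in each untreated MG library of WT (blue, n = 3) and Ccr2-/- mice (red, n = 3), with lines at the group means. The groups do not overlap for any of the 12 genes, which was a condition of their choice for all but P2ry12 and Ccr1. Cst3 to Rpl37a lie higher and Ccr1 to Leng8 lie lower in Ccr2-/- MG.

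The 12 lower calls with the smallest p were led by Nav2 and Rsrp1. Nav2, encoding a large neuron navigator protein, fell from 450.3, 465 and 385 CPM to 95.6, 82.2 and 83 CPM (log2 fold change -2.32 with an SE of 0.109, edgeR adjusted p = 1.45e-09). Rsrp1, an arginine and serine-rich protein gene, fell from 2486, 2070.5 and 1975 CPM to 708, 659.7 and 701 CPM (log2 fold change -1.66 with an SE of 0.0868, edgeR adjusted p = 5.01e-09). Leng8 showed the largest fold change of the 12, from 445, 477 and 417 CPM to 113, 62.3 and 75.4 CPM (log2 fold change -2.42 with an SE of 0.162, edgeR adjusted p = 4.72e-08). No overlap was a condition for entering these 12 as well, and for each of the 3 genes the lowest WT library lay far above the highest Ccr2-/- library. Macf1, a giant linker of microtubules and actin, changed by -1.66, the Rac activator gene Dock4 by -1.56, Lrp1, an endocytic receptor of apolipoprotein E, by -1.35 and the splicing scaffold gene Srrm2 by -1.39 on the log2 scale. Snx29 (-1.94), Rgl2 (-1.68), Akap8l (-1.71), Ttc14 (-1.78) and Ivns1abp (-1.28) completed the 12. With the exon length trend described below removed, Macf1 (-0.56), Dock4 (-0.67), Lrp1 (-0.62) and Srrm2 (-0.85) passed but were no longer past the fold limit. Nav2 (-1.19), Rsrp1 (-1.72), Leng8 (-2.20), Snx29 (-1.72), Rgl2 (-1.59), Akap8l (-1.58) and Ivns1abp (-1.12) stayed past it.

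Of 38 genes of resting MG identity tested, 23 rose and 2 fell at an adjusted p below 0.05, with a median log2 fold change of 0.43 against -0.03 over all genes tested. Of all genes tested, 14.6% were higher and 16.3% lower. P2ry12, the purinergic receptor of MG processes, rose from 9479, 10081 and 10688 CPM to 15832, 15121 and 15114 CPM (log2 fold change 0.61 with an SE of 0.0522, edgeR adjusted p = 7.48e-07), and 0.64 with an adjusted p of 0.0627 when all 18 MG libraries were fitted together. Ctss, encoding cathepsin S, changed by 0.88 on the log2 scale (edgeR adjusted p = 2.39e-07). The fractalkine receptor gene Cx3cr1 had 6935 ± 303 CPM in WT and 7421 ± 64.8 CPM in Ccr2-/- MG and did not pass (log2 fold change 0.10, edgeR adjusted p = 0.176), but did with the exon length trend removed (0.18, edgeR adjusted p = 0.0124).

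Of 18 lysosomal genes, 15 rose and 0 fell (median log2 fold change 0.52). These and the complement and disease-associated counts below stand against 14.6% higher and 16.3% lower of all genes tested. Lgmn, encoding legumain, rose from 4447 ± 301 to 6857 ± 318 CPM (n = 3; edgeR adjusted p = 2.89e-06) and Ctsh, encoding cathepsin H, from 701 ± 43.2 to 1167 ± 30.4 CPM (edgeR adjusted p = 4.08e-06). Of 12 complement and Fc receptor genes, 8 rose and 0 fell, among them the C1q chains C1qa, C1qb and C1qc (log2 fold changes 0.71, 0.67 and 0.73) and Fcgr3 (0.62). With the exon length trend described below removed, C1qa, C1qb, C1qc and Fcgr3 changed by 0.34, 0.31, 0.46 and 0.33 and passed. The median of this list went from 0.59 to 0.32. Of 20 genes known from disease-associated MG, 11 rose and 0 fell, and 5 were called with the fold limit, including Cd9, Tyrobp and Apoe. Of all genes tested, 1.39% were called higher. Trem2, the lipid receptor of this state, rose from 1219, 1278 and 1213 CPM to 1997, 1807 and 1963 CPM (log2 fold change 0.64 with an SE of 0.0696, edgeR adjusted p = 6.58e-06). The tetraspanin gene Cd63 changed by 0.95 (edgeR adjusted p = 2.57e-06). The lists share members, as the C1q chains and Trem2 are also counted among the genes of resting MG identity above.

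Of the genes of antigen presentation, some were higher. Their counts stand against 14.6% higher and 16.3% lower of all genes tested. In MHC class II, 4 of 9 rose and 0 fell, with H2-DMa at 170.4 ± 8.76 and 306 ± 22.9 CPM and H2-DMb1 at 76.3 ± 2.94 and 141 ± 13.4 CPM (n = 3; edgeR adjusted p = 1.21e-05 and 4.57e-05), both parts of the peptide loading factor, and with H2-Oa called at a log2 fold change of 1.06 (edgeR adjusted p = 0.000821). In MHC class I, 4 of 13 rose and 1 fell. B2m, the invariant light chain, changed by 0.74 and the immunoproteasome gene Psmb8 by 0.63 (edgeR adjusted p = 2.06e-06 and 0.00202). With the exon length trend described below removed, B2m changed by 0.36, Psmb8 by 0.58 and H2-Oa by 0.72. All of them passed, and H2-Oa was no longer past the fold limit. Nlrc5, the transactivator of class I genes, fell from 20.7, 11.4 and 10.5 CPM to 4.95, 5.96 and 4.2 CPM (log2 fold change -1.48 with an SE of 0.347, edgeR adjusted p = 0.00409).

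Of 36 interferon-stimulated genes, 1 rose and 6 fell (median log2 fold change -0.21), and the share that fell was close to the 16.3% of all genes tested. Slfn8 fell from 92.3 ± 5.43 to 60.6 ± 8.21 CPM (n = 3; log2 fold change -0.61, edgeR adjusted p = 0.00327). The antiviral gene Mx1, at 20.7, 5.65 and 9.14 CPM in WT and 5.3, 0.303 and 3.42 CPM in Ccr2-/- MG, was called lower (log2 fold change -1.99 with an SE of 0.643, edgeR adjusted p = 0.0271), but not without WT mouse 9 (-1.30, edgeR adjusted p = 0.193), without 5f (edgeR adjusted p = 0.0653) or with DESeq2 (adjusted p = 0.166). Of 19 cytokine and NF-kappaB genes, 3 rose, close to the 14.6% of all genes, and 1 fell, led by the LPS co-receptor gene Cd14 (426 ± 41.4 and 691 ± 23.6 CPM, n = 3; log2 fold change 0.70, edgeR adjusted p = 2.66e-05). Among 21 immediate early genes, which mark dissociation-induced activation, 0 rose and 1 fell (median 0.07). This was Zfp36, whose groups overlapped (log2 fold change -0.54, edgeR adjusted p = 0.0156) and which did not pass without WT mouse 14 (edgeR adjusted p = 0.134) without 3m (edgeR adjusted p = 0.0684) or with DESeq2 (adjusted p = 0.13). Of 11 heat shock genes, 1 rose and 3 fell, against 14.6% and 16.3% of all genes tested. The inducible Hspa1b lay at 2.73, 11.3 and 22.6 CPM in WT and 0.472, 3.74 and 1.31 CPM in Ccr2-/- MG (log2 fold change -2.69 with an SE of 0.683, edgeR adjusted p = 0.007, and 0.104 without WT mouse 15), with overlap between the groups.

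Among chemokine receptors, 1 was called away from Ccr2. Ackr3, an atypical scavenger receptor of CXCL12, rose from 0.13, 0.502 and 1.65 CPM to 5.3, 4.35 and 6.18 CPM (log2 fold change 2.73 with an SE of 0.734, edgeR adjusted p = 0.0099). It did not pass when all 18 MG libraries were fitted together (edgeR adjusted p = 0.174). In all, 1 of 9 chemokine receptors was higher and 2 lower, and 2 of 8 chemokines were higher and 0 lower. These few genes stand against 14.6% higher and 16.3% lower of all genes tested. Of 18 glycolysis genes, 7 rose and 0 fell, including Tpi1, Ldha and Aldoa (log2 fold changes 0.74, 0.63 and 0.45). Of 18 sterol and lipid genes 2 rose and 2 fell, with the cholesterol exporter Abcg1 at 0.51 (edgeR adjusted p = 0.0016). Of 15 circadian clock genes, 0 rose and 3 fell, including Per3 (21.3 ± 3.56 and 7.57 ± 2.94 CPM, n = 3; log2 fold change -1.49, edgeR adjusted p = 0.00117) and Clock (-0.92, edgeR adjusted p = 0.000185). Clock no longer passed with the exon length trend removed (-0.33, edgeR adjusted p = 0.0914). TGF-beta genes gave 1 higher and 2 lower of 12, with the repressor gene Ski at -0.52 (edgeR adjusted p = 0.000363). Glucocorticoid-responsive genes gave 1 higher and 0 lower of 9, namely Sgk1 (0.64, edgeR adjusted p = 0.000242). Cell cycle genes gave 2 higher and 0 lower of 17. The counts of the sterol, clock, TGF-beta, glucocorticoid and cell cycle lists were near or below the 14.6% higher and 16.3% lower of all genes tested.

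Of genes that are known to vary between sublines or strains of laboratory mice, 6 were tested, of which 1 was higher and 2 lower. Of all genes tested, 14.6% were higher and 16.3% lower. Nnt, the mitochondrial transhydrogenase gene that is partly deleted in one C57BL/6 subline, lay at 7.93, 7.03 and 7.49 CPM in WT and at 1.53, 2.22 and 2.5 CPM in Ccr2-/- MG (log2 fold change -1.84 with an SE of 0.457, edgeR adjusted p = 0.0061). Ide, the insulin-degrading enzyme gene, rose from 51.9, 73.3 and 78.3 CPM to 120.1, 129 and 165 CPM (log2 fold change 1.02 with an SE of 0.161, edgeR adjusted p = 0.000182). Neither gene overlapped between the groups. Wdfy1 was the other lower one (log2 fold change -0.70, edgeR adjusted p = 0.012). The part of the strain background in the other differences was not tested.

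Few markers of other cells were high enough to be tested, and their counts stand against 14.6% higher and 16.3% lower of all genes tested. Of 19 border macrophage markers, 7 were tested, 1 rose (Ms4a6c, log2 fold change 0.79, edgeR adjusted p = 0.0326, and 0.0573 to 0.141 without any 1 of WT mice 14 and 15 and the 3 Ccr2-/- mice, and 0.122 with the exon length trend removed) and 1 fell. The summed level of 644.7 to 667.9 CPM in WT and 315.2 to 368.8 CPM in Ccr2-/- MG was mainly that of the scavenger receptor gene Stab1, which MG also express (585 ± 14.7 and 256 ± 41 CPM, n = 3; log2 fold change -1.19, edgeR adjusted p = 1.04e-06). Mrc1, the gene of the sort marker CD206, lay at 11.6 to 12.6 CPM in WT and 7.23 to 15 CPM in Ccr2-/- MG, and Cd209f and Ms4a7 had no count in WT. Monocyte markers summed to 12 to 16.13 CPM in WT and 15.97 to 24.4 CPM in Ccr2-/- MG and 0 of 3 tested passed. The single neutrophil gene tested, Csf3r, fell (log2 fold change -0.42, edgeR adjusted p = 0.0281), but not without WT mouse 9, 3m or 5f (edgeR adjusted p = 0.104 to 0.161) or with DESeq2 (adjusted p = 0.191). Of the other lists, 1 of 5 astrocyte genes rose (Gja1, 1.09 ± 0.0835 and 4.77 ± 3.46 CPM, edgeR adjusted p = 0.0257, and 0.0796 to 0.213 without WT mouse 14, WT mouse 15 or 3m). So did 1 of 3 neuronal genes (Snap25, 2.86 ± 1.83 and 9.19 ± 2.76 CPM, edgeR adjusted p = 0.0159, and 0.0546 to 0.0639 without 3m, 5f or WT mouse 14). The same held for 1 of 5 oligodendrocyte genes (Cnp, log2 fold change 0.51, edgeR adjusted p = 0.00365), 1 of 2 endothelial genes (Pecam1, 0.67, edgeR adjusted p = 0.00726) and the single lymphocyte gene tested (Cd79b, 0.60, edgeR adjusted p = 0.0201), whereas 0 of 2 erythroid genes passed. With the exon length trend removed, Cd79b changed by 0.27 and did not pass. In bulk libraries fewer cells of a type and less RNA per cell cannot be told apart, and the part of these cells in the differences was not tested.

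Groups of genes chosen after their values were seen describe the contrast further. Their counts stand against 14.6% higher and 16.3% lower of all genes tested. Of 73 ribosomal protein genes tested, 65 rose and 0 fell (median log2 fold change 0.88). Of 84 nuclear-encoded respiratory chain genes, 65 rose and 0 fell (median 0.74), led by Cox6b1 (52.9 ± 8.93 and 119 ± 2.19 CPM), Ndufc2 (61.8 ± 11.3 and 135 ± 3.28 CPM) and Atp5f1e (24.3 ± 4.7 and 65.2 ± 8.32 CPM). Ribosomal protein genes made up 0.196 to 0.243% of all counts in WT and 0.346 to 0.378% in Ccr2-/- MG. Of 26 genes of SR splicing factors, their kinases and partners, 1 rose and 19 fell (median -0.98). Pnisr fell from 402, 346 and 335 CPM to 108, 58.7 and 85 CPM. The splicing factor gene Srsf5 fell from 1053, 1035 and 951 CPM to 445, 222 and 343 CPM, and the SR kinase gene Clk1 from 528, 549.9 and 603 CPM to 254, 215 and 199 CPM (edgeR adjusted p for Pnisr, Srsf5 and Clk1 = 2.48e-07, 4.1e-06 and 2.17e-07). This family held 0.806 to 0.867% of counts in WT and 0.32 to 0.367% in Ccr2-/- MG.

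Several long noncoding RNAs known from the nucleus were lower. Malat1, a long noncoding RNA of nuclear speckles, lay at 111, 135 and 154 CPM in WT and 44.9, 41.5 and 41.9 CPM in Ccr2-/- MG (log2 fold change -1.64 with an SE of 0.142, edgeR adjusted p = 7.72e-07). Neat1, the scaffold of paraspeckles, lay at 107, 97.3 and 76.9 CPM and 30.6, 18 and 16.2 CPM (log2 fold change -2.12 with an SE of 0.215, edgeR adjusted p = 3.45e-06). The groups of both genes did not overlap. Of 16 long noncoding genes listed after their values were seen, 0 rose and 6 fell, against 14.6% and 16.3% of all genes tested. Of 344 genes annotated as noncoding, 82 (23.8%) were called lower and 1 higher, against 6.18% and 1.39% of all genes tested. Of 30 genes of very long proteins, 0 rose and 26 fell (median -1.31), for example Dst, a cytoskeletal linker (163, 195 and 183 CPM in WT and 55.2, 59 and 49.9 CPM in Ccr2-/- MG), and Herc1, a ubiquitin ligase (122 ± 10.1 and 41.6 ± 8.37 CPM).

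Fold changes varied with exon length. With 10356 genes (96.3%) in 8 bins by total exon length in the GENCODE M21 annotation, the median log2 fold change fell from 0.46 in the bin of at most 1988 bases to -0.51 in that of at least 9243 bases, with each bin below the one before it. The share of genes called higher was 6.87% in the shortest bin and 0.232% in the longest, and the share called lower was 5.25% and 16.1%. Called higher genes had a median exon length of 1495 bases, called lower genes one of 6712 bases and all genes tested one of 4522 bases. Across genes, which are not independent replicates and share these 6 libraries, Spearman's rho of fold change with exon length was -0.43 and with GC content -0.02.

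**Figure D3:**
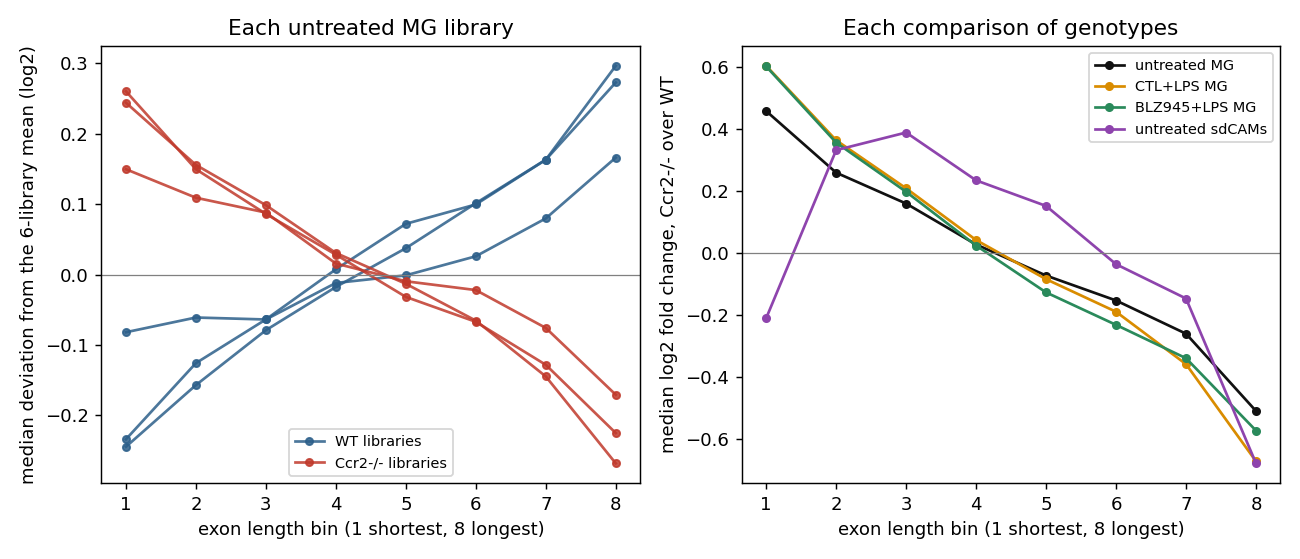
Left, median deviation of each untreated MG library from the mean of the 6 libraries (log2 of CPM + 1) by exon length bin, WT in blue and Ccr2-/- in red (n = 3 each). Right, median log2 fold change of Ccr2-/- over WT by the same bins in 4 comparisons, which falls from the first to the last bin in all MG comparisons and from the third bin onward in sdCAMs.

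The length pattern was seen in each of the 6 libraries. In the longest bin the median deviation from the mean over libraries was 0.17, 0.30 and 0.27 on the log2 scale in the WT libraries and -0.27, -0.17 and -0.23 in the Ccr2-/- libraries, and in the shortest bin it was -0.08, -0.24 and -0.23 and then 0.24, 0.15 and 0.26. When a smooth trend on exon length was removed from each library, 500 genes were called, 91 higher and 409 lower, of which 437 were calls in the same direction before. Of the 150 higher calls 60 were kept, and of the 665 lower calls 377. The medians of lists after this step were 0.67 for ribosomal protein, 0.54 for respiratory chain, 0.39 for lysosomal, 0.40 for homeostatic and 0.67 for disease-associated genes, where 17 of 18 lysosomal and 27 of 38 homeostatic genes rose. SR splicing genes had a median of -0.71 with 17 of 26 lower, and very long proteins one of -0.55 with 15 of 30 lower. Malat1 changed by -1.39 and Rsrp1 by -1.72, whereas the imprinted antisense RNA Kcnq1ot1 went from -1.69 (edgeR adjusted p = 7.68e-06) to 0.20 (edgeR adjusted p = 0.43). No disease-associated gene was past the fold limit then, against 5 before. The part of library preparation in the length pattern cannot be told apart from genotype.

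**Figure D4:**
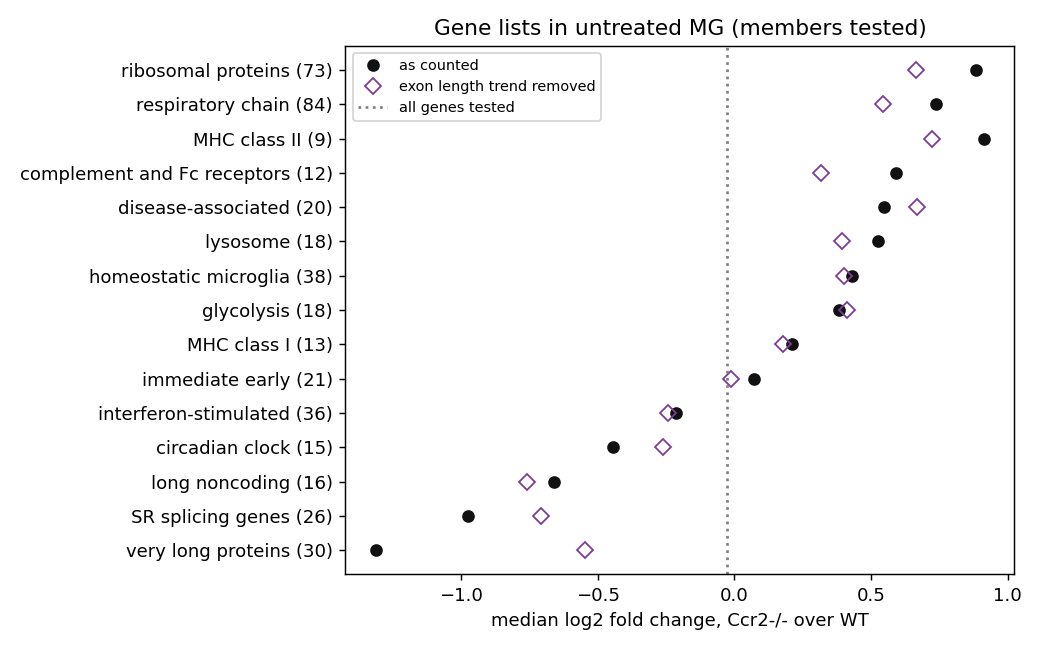
Median log2 fold change of Ccr2-/- over WT in untreated MG for 15 gene lists (members tested in parentheses) as counted (filled circles) and with the exon length trend removed (open diamonds), beside the median of all genes tested (dotted line). Only the immediate early list, near 0, changes its sign between the settings.

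The genotypes were compared in the same way in MG of other mice and in sdCAMs of the same mice. In these comparisons too, each genotype had its own deposited table and run of library numbers. Genotype and library preparation therefore cannot be told apart in them either. After CTL and LPS, the calls in Ccr2-/- MG were 1.74% higher and 6.1% lower of 10947 genes tested, and after BLZ945 and LPS 3.81% and 5.24% of 10942 genes. The Ccr2-/- libraries after LPS are titled as CAM but labelled as microglia by cell type, which was followed, and they held P2ry12 at 940 to 1905 CPM and Mrc1 at 1.79 to 5.95 CPM. Of the 665 lower calls of untreated MG, 357 were also called lower after CTL and LPS (53.7% of the untreated and 53.4% of the other list) and 285 after BLZ945 and LPS (42.9% and 49.7%). Of the 150 higher calls, 50 (33.3% and 26.3%) and 67 (44.7% and 16.1%) were called higher. Calls shared by all 3 MG comparisons numbered 38 higher and 218 lower. Rsrp1 changed by -2.18 and -2.04, Leng8 by -2.65 and -2.61, Cst3 by 1.04 and 1.18 and Tyrobp by 1.13 and 1.28 in these comparisons, and P2ry12 by 0.56 and 0.17 without passing the test (edgeR adjusted p = 0.217 and 0.549). The median log2 fold change by exon length bin fell from 0.60 to -0.67 after CTL and LPS and from 0.60 to -0.57 after BLZ945 and LPS.

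Whether a genotype difference itself changed between rest and CTL+LPS was tested by an interaction term over 12 libraries. Of 11610 genes, 0 passed an adjusted p of 0.05 (0.0%) with edgeR, where the lowest was 0.9999, and 504 had an unadjusted p below 0.05. For Ccr1 the log2 fold change at rest minus that after LPS was -2.51, for Mx1 -1.79, and neither passed.

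Untreated Ccr2-/- sdCAMs had calls in 3.52% (higher) and 7.28% (lower) of 10695 genes tested. Of the 150 higher calls of MG, 143 were tested there, 39 had the same sign and 5 were called higher (3.33% of the MG and 1.33% of the sdCAM list), and their median log2 fold change was -1.27. Of the 665 lower calls, 575 were tested, 496 had the same sign and 141 were called lower (21.2% and 18.1%). Ribosomal protein genes were lower there, with 0 of 73 higher, 35 lower and a median of -2.29. Their share of counts was 4.54, 3.31 and 0.669% in WT sdCAM libraries and 0.533 to 0.622% in Ccr2-/- ones. Rplp1 thus lay at 1928, 963 and 114 CPM in WT sdCAMs and at 119.2, 122.5 and 122.6 CPM in Ccr2-/- sdCAMs, and mouse 15 was as low as the Ccr2-/- group. The WT sdCAM libraries were shallower, at 1929070 to 3049028 counts against 8124128 to 8929948 counts, and the part of depth in this contrast was not tested.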

How the data were processed

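RNA of sorted cells was amplified with a SMARTer Ultra Low Input kit, and Nextera XT libraries were read in 50 cycles as single reads without molecular identifiers. The authors demultiplexed with bcl2fastq 2.20, aligned with STAR 2.7.11a and assigned reads to genes with featureCounts 2.0.8, and the deposited values are raw counts per gene symbol. The genome build is given in more than one way and the strand setting is not given in the sources used here, so that overlapping genes cannot be told apart. The WT and Ccr2-/- tables were joined by symbol, and the reporter table was not used. Columns were assigned to mice by their names. Of 33280 symbols, 31273 matched an annotation, 2007 did not and were kept, and 1838 X- or Y-linked ones were left out.

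Counts were tested with edgeR 4.0.16 in R 4.3.3 (filterByExpr, TMM, quasi-likelihood, Benjamini-Hochberg adjustment over all genes tested). SE is the log2 fold change divided by the square root of F. A gene passed at an adjusted p below 0.05 and was called with a log2 fold change above 1 in size as well. DESeq2 1.42.0, which the authors used as version 1.46.0, was an alternative. The test was checked on simulated counts. Exon lengths came from GENCODE M21. The exon length trend was removed per library by a natural spline (4 df) entered as offsets. Members, lists and the rule for named genes were chosen with earlier results of these data known. Named were Ccr2 and its ligands, called genes within 40 genes of Ccr2, the 12 higher and 12 lower calls with the smallest p (mean of at least 10 CPM, no overlap, no predicted symbol) and up to 4 genes per list, those that passed first. Genes and lists beyond it were chosen after their values were seen, among them Wdfy1, Kcnq1ot1 and the ribosomal, respiratory chain, SR splicing, long noncoding and very long protein lists. Genes encoded in mitochondrial DNA were not analysed here, and some genes that the rule names are counted but not reported here. The 15 planned and 4 added alternatives are given in the closing section.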

Additional observations from a re-analysis of the deposited data

Results flagged for a closer look

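For 5 of the genes named in the report, all Ccr2-/- libraries lay on one side of all WT libraries in untreated MG and on the other side in untreated sdCAMs of the same mice. In each case the difference between the cell types was not tested. The share of all genes with this pattern was not counted. Of all genes tested in untreated MG, 44.1% did not overlap between the genotypes. In sdCAMs, 39 of 143 higher MG calls and 496 of 575 lower MG calls had the same sign. Ccr1 had a log2 fold change of -5.99 in MG and 1.10 in sdCAMs (SE 0.255). Stab1 had -1.19 in MG and 0.34 in sdCAMs, where it did not pass (edgeR adjusted p = 0.348). Cd9 had 1.10 in MG and -0.95 in sdCAMs (edgeR adjusted p = 0.0979). Abcg1 had 0.51 in MG and -1.73 in sdCAMs (edgeR adjusted p = 0.0186). Cx3cr1 had 0.10 in MG and -1.05 in sdCAMs and passed in neither (edgeR adjusted p = 0.176 and 0.0599).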

How the results depend on the processing

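The 815 calls became 3316 without a fold limit, 500 with the exon length trend removed, 500 with exon length and GC and 509 with exon length and gene span. The 150 higher calls became 1568, 91, 89 and 99 in the same order, 94 without the gene classes that the study removes and 238 without WT mouse 9. The 665 lower calls became 1748, 409, 411 and 410. Leaving out 1 library at a time gave 671 to 863 calls, 107 to 238 higher and 532 to 679 lower. The 3 trend corrections and the Xist covariate were chosen after seeing the data. Under the other alternatives the total lay between 627 and 871 (DESeq2). Ccr2 changed sign without WT mouse 15 (0.22), with Xist presence as a covariate (0.14), and with the trend on exon length (0.10) or on exon length and gene span (0.15) removed, and passed in none; its range with 1 library left out was -0.44 to 0.22. Of 71 of the named genes that were followed through the alternatives, 67 passed, 48 did so under every alternative, 19 were lost under at least 1 and 0 of the 67 changed sign. Other genes named in the report are outside this count. Among them, with the exon length trend removed, Kcnq1ot1 changed sign and no longer passed, and Cd79b (0.27) no longer passed. The fit of 18 MG libraries lost 14, namely P2ry12 (edgeR adjusted p = 0.0627), Ackr3, Ccl9, Cd14, Tpi1, Ldha, Aldoa, Abcg1, Ski, Sgk1, Pecam1, Gja1, Csf3r and Zfp36 (0.0515 to 0.337). Ccl12 and Cx3cr1 passed only under some alternatives, part of which are given in the report. Ccl12 also passed with no low-count filter (edgeR adjusted p = 2.08e-07), but not with DESeq2 (adjusted p = 0.304). Cx3cr1 also passed with the trend on exon length and GC (edgeR adjusted p = 0.0133) or on exon length and gene span (0.0278) removed. No paired analysis was possible because the compared groups share no mouse and no replicate number. With 3 mice per group, an exact permutation test of 1 gene cannot go below p = 0.1, and genes below 3 counts per library were beyond the depth.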
